A study of Homo sapiens with 6 samples.

Results

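The translation initiation factors and their regulators were taken as every gene of the count table whose symbol begins with EIF1 to EIF6. This gave 56 of 19470 genes, of which 53 had enough reads to be tested and 3 had not. The measurements are mRNA-seq read counts per gene from HCCC9810, an established human cholangiocarcinoma cell line labelled wild type. Control cells received the vehicle DMSO and treated cells received 20 μM isolinderalactone (ILL), a sesquiterpene lactone, in each case for 24 h. There were 3 libraries per group, all from 1 cell line at 1 dose and 1 time. The labels do not say whether the libraries came from separate cultures, so p-values measure the spread between these libraries, which may be technical.

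Translation initiation brings the initiator tRNA and the small ribosomal subunit to the start codon of an mRNA. eIF2 carries the tRNA and is recharged by eIF2B, while stress kinases that phosphorylate eIF2 block this recharging and lower protein synthesis in most cells. In parallel, eIF4E binds the mRNA cap, eIF4G joins it to the helicase eIF4A, and the 4E-binding proteins (4E-BPs) compete with eIF4G for eIF4E under the control of the kinase mTORC1. Tumour cells often carry high levels of these factors.

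The libraries held 34282764 to 37758569 counts each. Of the markers of biliary epithelium, KRT7 (1785 ± 23.2 CPM, the reads scaled to a common library size, in control, SD, n = 3), KRT19 (2126 ± 126 CPM) and EPCAM were abundant. Of 10 marker genes of hepatocytes, fibroblasts, leukocytes and endothelium, 7 were below 1 CPM in every library. Their summed level was 15.8 to 21.5 CPM in control and 22.8 to 31.2 CPM with ILL, and no single one exceeded 16.9 CPM. The part of this difference in the results was not tested.

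Most initiation factor mRNAs that changed with ILL were lower, and most changes were small. CPM values below are scaled by the trimmed mean of M values (TMM), and differences are log2 fold changes of ILL over control. A change was called at an adjusted p under 0.05 in edgeR's quasi-likelihood test over all 13066 tested genes. A called gene that also changed more than 2-fold is termed a differentially expressed gene (DEG), the cutoff used by the study. Of the 53 members, 39 (73.6%) were called, against 73.1% of all tested genes. Lower calls made up 29 members (54.7%) against 36.9% of all genes, and higher calls 10 members (18.9%) against 36.2%. Only 4 members (7.55%) were DEGs, against 23.9% of all genes. These were EIF4EBP1 and EIF4E3, which were higher (12.5% of all genes were DEGs in that direction), and EIF1AX and EIF2B3, which were lower (11.4% in that direction). Among the other called members, 21 changed less than 1.5-fold and 14 changed 1.5-fold to 2-fold. The median log2 fold change was -0.24 over the members and -0.0012 over all tested genes. The libraries of the groups did not overlap for 39 of the 53 members, against 75.4% of all genes.

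**Figure D1:**
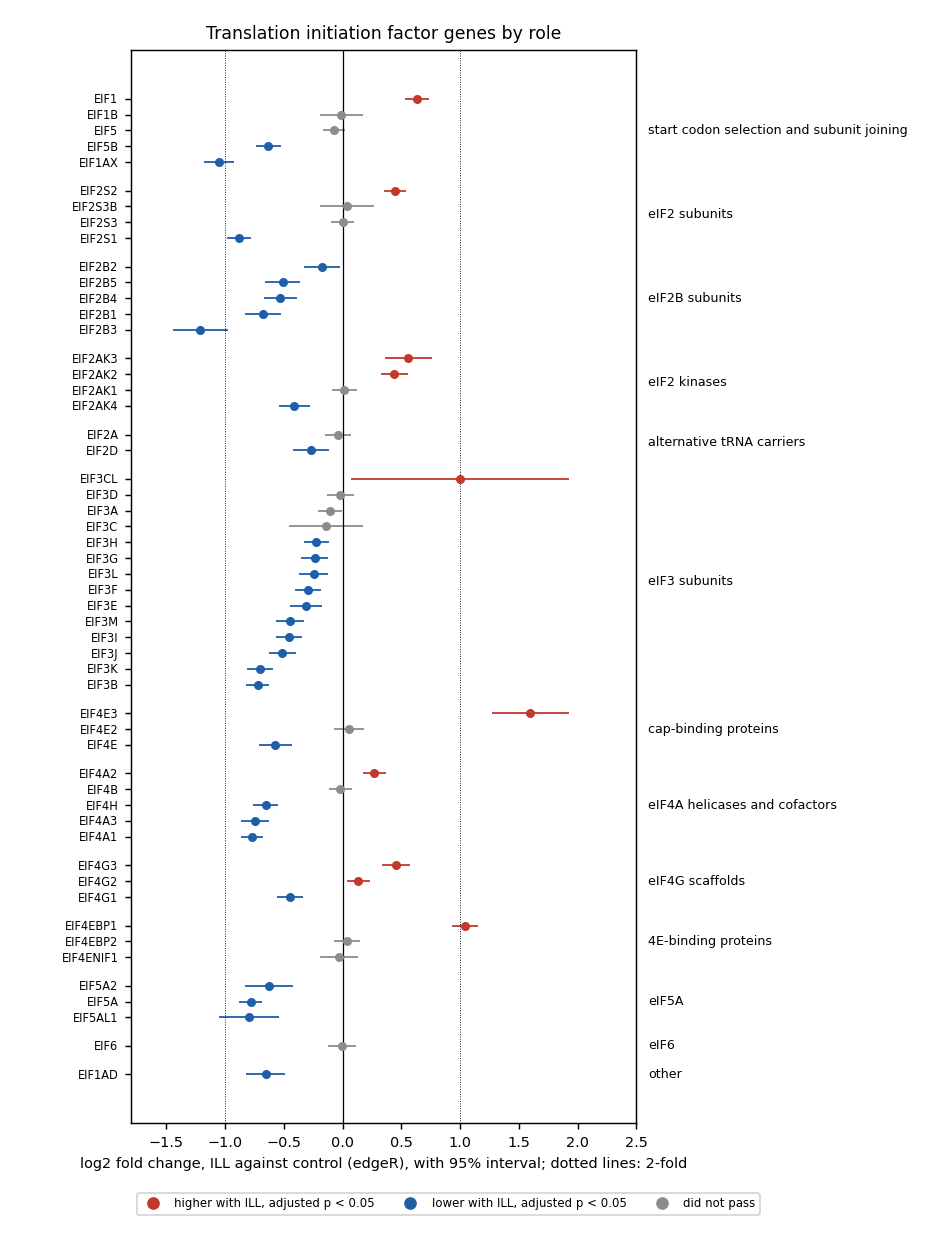
Log2 fold change (ILL over control) of the 53 tested initiation factor genes, grouped by role, with 95% intervals from edgeR, dotted lines at a 2-fold change and colour for the direction of called genes. The eIF2B, eIF3 and eIF5A groups lie mostly below 0, and EIF4E3 (1.60) and EIF4EBP1 (1.04) lie farthest above it, followed by EIF3CL, whose interval is wide.

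As a share of the library, the members' counts made up 1.23%, 1.22% and 1.23% of all counts in the control libraries. With ILL the shares were 1.03%, 1.01% and 1.03%. The groups did not overlap and each was tight. A bulk library gives relative amounts only, so less of these mRNAs per cell and more of other RNA cannot be told apart, nor can a change in every cell and a change in the mixture of cell states.

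Levels can be compared between genes only per length, for which the deposited FPKM (reads scaled by gene length and library total) were used. In control cells the highest mean levels among the members were those of EIF4A1 (486 FPKM), EIF6 (485 FPKM) and EIF3K (447 FPKM). With ILL the order was EIF6 (460 FPKM), EIF4EBP1 (279 FPKM) and EIF4A1 (272 FPKM). EIF4EBP1 thus moved from place 11 to place 2, and EIF5A, the substrate of the hypusine modification, from place 4 to place 13. Over the 53 members the control level and the log2 fold change had a Pearson correlation of -0.28 and a Spearman correlation of -0.11 (across genes of the same libraries, which are not independent, and the control value enters both measures). Over all tested genes they were -0.28 and -0.24.

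**Figure D2:**
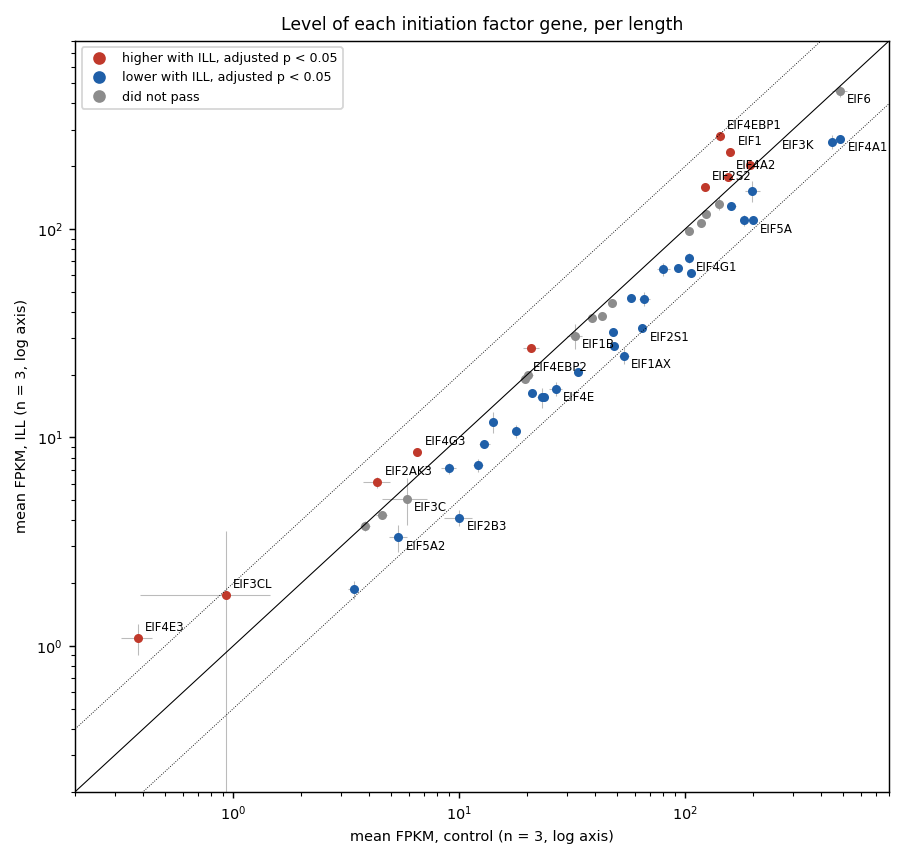
Mean FPKM of each tested initiation factor gene in control (x axis) and with ILL (y axis), both on log scales, with SD bars, a solid line of equal level and dotted lines at 2-fold. EIF4EBP1 and EIF1 lie above the line and EIF4A1, EIF3K and EIF5A below it among the abundant members.

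The factors that inspect the start codon moved in opposite directions. EIF1, which keeps the scanning ribosome open until the start codon is found, stood at 345, 369 and 370 CPM in control and at 559, 575 and 548 CPM with ILL. Every ILL library was above every control library, and EIF1 rose 1.55-fold (log2 fold change 0.64, SE 0.05, edgeR adjusted p = 2.3e-11). EIF1AX, which encodes eIF1A (X chromosome, 20124518 to 20141844, minus strand, GRCh38), stood at 230, 244 and 221 CPM in control and at 123, 108 and 104 CPM with ILL. It fell 2.07-fold (log2 fold change -1.05, SE 0.06, edgeR adjusted p = 8.1e-14), again with no overlap. EIF5B, the GTPase that joins the ribosomal subunits, fell from 188 to 121 CPM (means of n = 3; log2 fold change -0.63, SE 0.05, edgeR adjusted p = 6.2e-11). EIF5, the GTPase activator of eIF2, had 700, 682 and 687 CPM in control and 674, 649 and 643 CPM with ILL (log2 fold change -0.07, 95% interval -0.17 to 0.02, edgeR adjusted p = 0.16), so that its groups did not overlap although the test did not call it. Scaled by library size alone, EIF5 was called lower (edgeR adjusted p = 0.00783). The limma runs on FPKM also called EIF5 lower (adjusted p 0.00906 to 0.0114). EIF1B, the paralog of EIF1, had 31.5, 33.6 and 29 CPM in control and 35.4, 30.8 and 27.1 CPM with ILL (-0.01, 95% interval -0.19 to 0.17). EIF1AD, a gene named for its similarity to eIF1A, fell from 36.2 ± 2.05 to 23.0 ± 1.58 CPM (SD, n = 3). EIF1AY is Y-linked and its values are not given here.

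The subunits of eIF2 did not move together. EIF2S1, the α subunit that carries the regulatory phosphorylation site, stood at 266, 267 and 254 CPM in control and at 145, 140 and 141 CPM with ILL. It fell 1.84-fold (log2 fold change -0.88, SE 0.05, edgeR adjusted p = 7.0e-14). EIF2S2, the β subunit, stood at 355, 352 and 359 CPM in control and at 487, 477 and 487 CPM with ILL, a rise of 1.36-fold (log2 fold change 0.44, SE 0.05, edgeR adjusted p = 6.4e-09). The groups of either gene were far apart relative to their spread. On the other strand, ATP6V1D overlaps EIF2S1 (log2 fold change of ATP6V1D 0.13, edgeR adjusted p = 0.031). RALY likewise overlaps EIF2S2 (log2 fold change of RALY -0.29, edgeR adjusted p = 8.6e-06). The part of ATP6V1D and RALY reads in these counts was not tested. EIF2S3, the γ subunit that binds the tRNA and GTP, had 417, 413 and 429 CPM in control and 424, 411 and 423 CPM with ILL (95% interval of the log2 fold change -0.10 to 0.10). EIF2S3B, a near-identical copy of EIF2S3 whose reads may be shared with it, had means of 11.9 and 12.2 CPM. Per length, the ratio of EIF2S2 to EIF2S1 was 1.90 ± 0.0694 in control and 4.75 ± 0.0621 with ILL (SD, n = 3, a 2.51-fold difference), a pair chosen after the values were seen and therefore given without a test.

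All 5 genes of eIF2B, the exchange factor that recharges eIF2, were lower with ILL, with a median log2 fold change of -0.53. Of all tested genes 36.9% were called lower. EIF2B3, the γ subunit (chromosome 1, 44850522 to 44986722, minus strand, GRCh38), changed most. It had 20.7, 22.9 and 27.4 CPM in control and 9.28, 10.3 and 11.1 CPM with ILL, and fell 2.32-fold (log2 fold change -1.21, SE 0.11, edgeR adjusted p = 7.0e-10). EIF2B1 fell from 41.9 to 26.3 CPM, EIF2B4 from 44.8 to 31.0 CPM and EIF2B5, the catalytic subunit, from 59.2 to 41.5 CPM (means of n = 3). Each of these 4 had no overlap between groups, which held for 75.4% of all tested genes. EIF2B2 was the exception, with 59.2, 57.8 and 60.1 CPM in control and 46.4, 51.8 and 58.8 CPM with ILL (log2 fold change -0.17, SE 0.07, edgeR adjusted p = 0.035). Its groups overlapped, and its call was lost with DESeq2's Wald test (adjusted p = 0.0683) and on leaving out any 1 library except ILL replicate 3 (adjusted p 0.0506 to 0.255 in edgeR). The deposited FPKM summed over the 5 subunits were 89.0 in control and 57.9 with ILL.

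**Figure D3:**
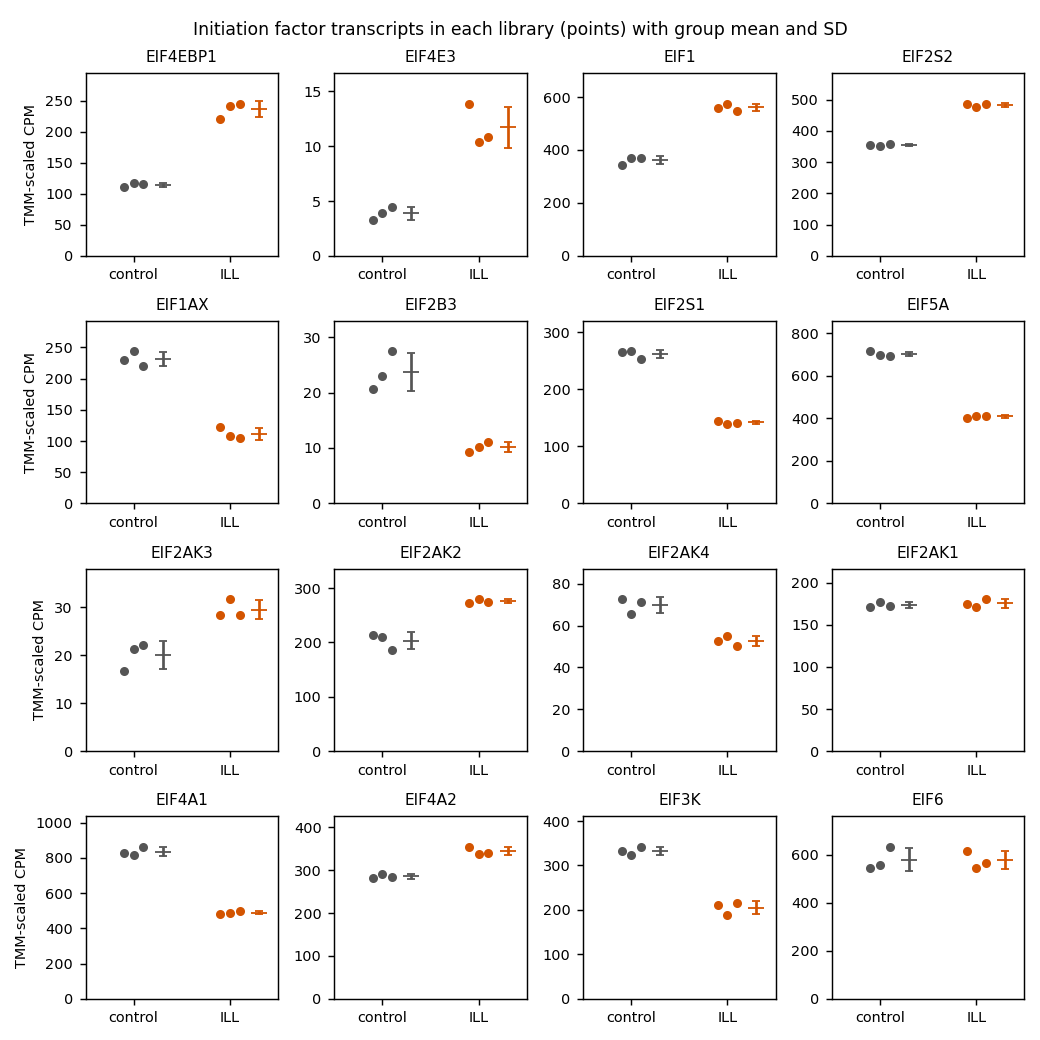
Expression (TMM-scaled CPM on linear axes from 0) of initiation factor genes in each of the 3 control and 3 ILL libraries, with 1 point per library and the group mean and SD beside them. The ILL points of EIF1, EIF2S2, EIF4E3 and EIF4EBP1 all lie above their control points, those of EIF1AX, EIF2S1, EIF2B3 and EIF5A all lie below, and those of EIF2AK1 and EIF6 overlap.

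The 4 kinases that phosphorylate eIF2α, each of which answers another stress, differed in direction. EIF2AK3 (PERK), the kinase of endoplasmic reticulum stress, had 16.8, 21.2 and 22.1 CPM in control and 28.4, 31.7 and 28.4 CPM with ILL. It rose without overlap (log2 fold change 0.56, SE 0.10, edgeR adjusted p = 1.3e-05). EIF2AK2 (PKR), the kinase activated by double-stranded RNA, had 214, 210 and 186 CPM in control and 273, 280 and 274 CPM with ILL, and also rose (log2 fold change 0.44, SE 0.06, edgeR adjusted p = 1.3e-07). EIF2AK4 (GCN2), the kinase of amino acid shortage, had 72.8, 65.7 and 71.4 CPM in control and 52.4, 55.0 and 50.4 CPM with ILL. It fell (log2 fold change -0.41, SE 0.06, edgeR adjusted p = 3.4e-06), with every ILL library below every control library. EIF2AK1 (HRI), the kinase of heme shortage and mitochondrial stress, had 171, 178 and 172 CPM in control and 175, 171 and 181 CPM with ILL (0.02, 95% interval -0.09 to 0.12). These are mRNA levels and say nothing of kinase activity or of eIF2α phosphorylation, which were not measured in these libraries.

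Around the kinases, 9 genes were listed: eIF2 phosphatase subunits, the GCN2 regulators GCN1 and IMPACT, and DNAJC3 and NCK1. Of these, 5 rose (PPP1R15A, PPP1R15B, PPP1CB, DNAJC3 and NCK1), 3 fell (PPP1CA, PPP1CC and GCN1) and IMPACT was not called. Their median log2 fold change was 0.44. Of all tested genes 36.2% were called higher and 36.9% lower. PPP1R15A (GADD34), the inducible subunit that directs the phosphatase to eIF2α, had 69.5, 73.4 and 71.5 CPM in control and 202, 223 and 207 CPM with ILL, a 2.95-fold rise (log2 fold change 1.56, SE 0.06, edgeR adjusted p = 6.4e-18). PPP1CC, a catalytic subunit of protein phosphatase 1, fell from 229 to 109 CPM (log2 fold change -1.07, SE 0.07, edgeR adjusted p = 4.1e-13). The other catalytic subunits differed from it. PPP1CB rose from 226 to 305 CPM (log2 fold change 0.44, edgeR adjusted p = 1.1e-06), and PPP1CA changed little (476 and 439 CPM, log2 fold change -0.12, edgeR adjusted p = 0.043). The transcription factors translated when eIF2 is phosphorylated were higher at the mRNA level too. ATF4 had 280, 266 and 278 CPM in control and 879, 925 and 954 CPM with ILL (log2 fold change 1.74, SE 0.05, edgeR adjusted p = 7.9e-20), and DDIT3 (CHOP) rose from 6.15 to 37.7 CPM (log2 fold change 2.62, SE 0.10, edgeR adjusted p = 7.8e-18). Of the proteins that can deliver initiator tRNA without eIF2, EIF2A had means of 140 and 136 CPM (95% interval of the log2 fold change -0.15 to 0.07), and EIF2D, with 43.0, 43.7 and 49.8 CPM in control and 38.3, 35.2 and 39.7 CPM with ILL, fell (log2 fold change -0.27, SE 0.07, edgeR adjusted p = 0.0021).

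eIF3, the largest initiation factor, holds the small subunit and recruits the mRNA. Of its 14 tested genes 10 fell (71.4%) and 1 was called higher (7.14%), with a median log2 fold change of -0.27. Of all tested genes 36.9% were called lower and 36.2% higher. The deposited FPKM summed over them were 1468 ± 16.7 in control and 1053 ± 36.6 with ILL (SD, n = 3). EIF3B, a scaffold subunit, had 361, 367 and 378 CPM in control and 224, 219 and 227 CPM with ILL (log2 fold change -0.72, edgeR adjusted p = 1.6e-12). EIF3K had 331, 325 and 342 CPM in control and 211, 188 and 215 CPM with ILL (log2 fold change -0.70, edgeR adjusted p = 2.7e-11). These were the lowest of the group, and their groups were widely separated. EIF3J, EIF3I and EIF3M had log2 fold changes of -0.51, -0.45 and -0.45, and EIF3E, EIF3F, EIF3L, EIF3G and EIF3H between -0.31 and -0.22. EIF3A, the largest subunit, had 291, 274 and 274 CPM in control and 262, 258 and 260 CPM with ILL, which did not overlap but just missed the threshold (-0.11, edgeR adjusted p = 0.053). It was called lower without control replicate 3 (edgeR adjusted p = 0.0443) and when libraries were scaled by size alone (edgeR adjusted p = 0.00251). DESeq2's Wald test (adjusted p = 0.0432) and the limma runs on FPKM (adjusted p 0.0059 to 0.0061) also called it lower. EIF3D had a log2 fold change of -0.02 (edgeR adjusted p = 0.78).

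EIF3C and EIF3CL are near-identical copies, so their reads may be split between them, and their values are uncertain. EIF3CL had 64, 81 and 174 counts in control and 76, 446 and 90 counts with ILL. The call of EIF3CL (log2 fold change 0.999, SE 0.45, edgeR adjusted p = 0.049) rested on ILL replicate 2, and without that library the log2 fold change was -0.31 (edgeR adjusted p = 0.449). It was also lost without control replicate 1 or control replicate 2 (edgeR adjusted p = 0.178 and 0.159), when libraries were scaled by size alone (edgeR adjusted p = 0.0675), with DESeq2's Wald test (adjusted p = 0.347) and with the replicate number as a block (edgeR adjusted p = 0.0714). In the limma runs on FPKM the gene was not called either (adjusted p 0.327 to 0.537). Summed over both copies, the counts were 865, 854 and 672 in control and 748, 1142 and 514 with ILL, so the groups overlapped. EIF3C itself had 20.6, 22.0 and 14.1 CPM in control and 19.2, 20.2 and 12.1 CPM with ILL (log2 fold change -0.14, edgeR adjusted p = 0.42).

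At the cap, the mRNA of the binding protein fell and that of its inhibitor rose. EIF4E, the cap-binding protein, had 80.1, 82.2 and 72.8 CPM in control and 55.5, 48.6 and 54.1 CPM with ILL (log2 fold change -0.57, SE 0.07, edgeR adjusted p = 3.9e-08). EIF4EBP1 (4E-BP1), which sequesters eIF4E when it is not phosphorylated by mTORC1, had 111, 117 and 116 CPM in control and 221, 242 and 245 CPM with ILL. It rose 2.06-fold (log2 fold change 1.04, SE 0.05, edgeR adjusted p = 1.2e-14), and its groups were far apart. Scaled by library size alone it was still called but fell below the 2-fold cutoff (log2 fold change 0.97). EIF4EBP2, the second 4E-BP, had 144, 150 and 136 CPM in control and 143, 147 and 151 CPM with ILL (0.04, 95% interval -0.08 to 0.15). EIF4EBP3 had 1 count in ILL replicate 1 and none in the other libraries. EIF4ENIF1 (4E-T), which carries eIF4E into the nucleus and into processing bodies, had means of 27.0 and 26.5 CPM (edgeR adjusted p = 0.76).

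Of the relatives of eIF4E, EIF4E2 (4EHP), a cap-binding repressor, had means of 77.6 and 80.5 CPM (0.05, 95% interval -0.07 to 0.18). EIF4E3 is an eIF4E relative that does not bind 4E-BPs (chromosome 3, 71675416 to 71754773, minus strand, GRCh38). It had 3.24, 3.93 and 4.47 CPM in control and 13.9, 10.4 and 10.9 CPM with ILL, and rose 3.02-fold (log2 fold change 1.60, SE 0.16, edgeR adjusted p = 2.4e-09). No ILL library came near the control libraries. It remained far rarer than EIF4E, with a ratio of FPKM of 0.0142 in control and 0.0631 with ILL, a pair chosen after the values were seen. The gene GPR27 overlaps EIF4E3 on the other strand and also rose (log2 fold change 0.68, SE 0.19, edgeR adjusted p = 0.0027), with 129 to 150 counts in control and 177 to 255 counts with ILL. Whether the counting used strand is not given in the sources used here, and the part of GPR27 reads in the EIF4E3 counts was not tested. EIF4E1B had 0 counts in all 6 libraries.

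The ratios of paralogs and partners were taken within each library from FPKM, which removes the library's scaling. The ratio of EIF4EBP1 to EIF4E was 5.03, 5.18 and 5.78 in control and 14.5, 18.1 and 16.5 with ILL, a 3.06-fold difference. With 3 libraries against 3 the exact two-sided permutation test cannot go below p = 0.1, which this ratio reached (adjusted p = 0.117 over the 7 ratios). The ratio of EIF4EBP2 to EIF4E was 0.734 ± 0.0165 in control and 1.12 ± 0.0881 with ILL (SD, n = 3), also without overlap. EIF1B to EIF1 went from 0.206 to 0.131 and EIF4G2 to EIF4G1 from 1.87 to 2.79 (means of n = 3). Of the 7 ratios, 6 did not overlap between groups, each at this smallest p, so no ratio could pass the threshold. The exception was EIF5A2 to EIF5A (0.0270 and 0.0301, exact permutation p = 0.4).

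**Figure D4:**
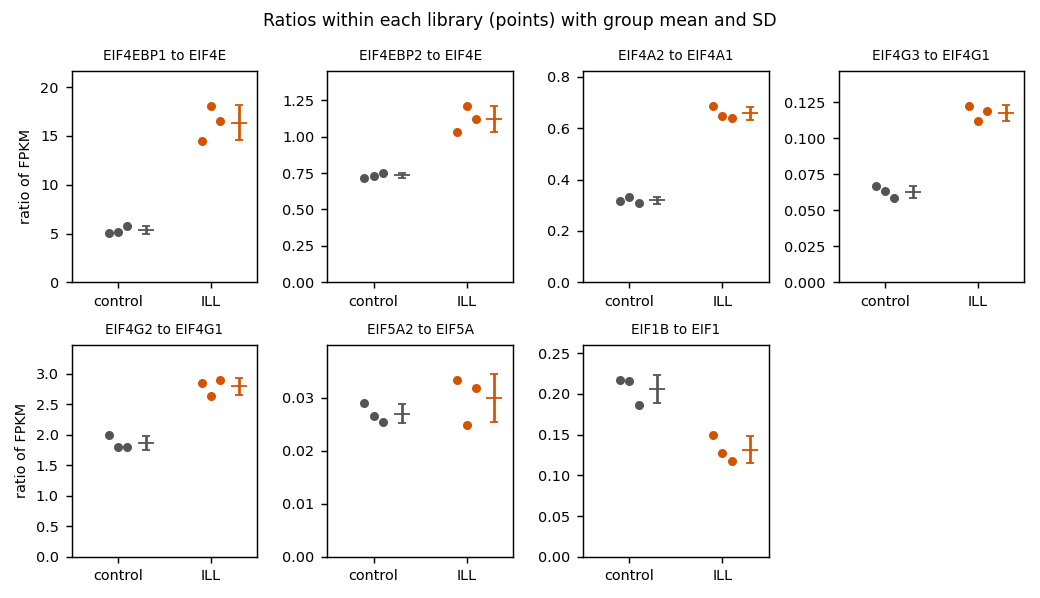
FPKM ratios of 7 paralog or partner pairs (linear axes from 0) in each of 3 control and 3 ILL libraries, as points with the group mean and SD. EIF4EBP1 to EIF4E shows the widest gap (means 5.33 and 16.3), and EIF5A2 to EIF5A overlaps.

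The helicase mRNAs moved in opposite directions. EIF4A1, the main helicase of cap-dependent initiation, had 825, 815 and 864 CPM in control and 483, 487 and 497 CPM with ILL. It fell 1.71-fold (log2 fold change -0.77, SE 0.05, edgeR adjusted p = 2.4e-13). EIF4A2, its close paralog, had 281, 292 and 285 CPM in control and 355, 338 and 341 CPM with ILL and rose (log2 fold change 0.27, SE 0.05, edgeR adjusted p = 2.4e-05). RFC4, which overlaps EIF4A2 on the other strand, fell (1418 to 1556 counts in control and 362 to 450 counts with ILL, log2 fold change -1.77), and its part in the EIF4A2 counts was not tested. The ratio of EIF4A2 to EIF4A1 went from 0.320 ± 0.0135 to 0.657 ± 0.0250 (SD, n = 3), with no overlap. EIF4A3, which acts in the exon junction complex rather than in initiation, fell from 119 to 70.9 CPM (log2 fold change -0.74), and EIF4H, a helicase cofactor, fell from 455 to 289 CPM (log2 fold change -0.66). EIF4B, the other cofactor, had means of 389.8 and 385 CPM (95% interval of the log2 fold change -0.12 to 0.08). It was called lower only by limma on log2(FPKM + 1) without an FPKM filter (log2 fold change -0.087, adjusted p = 0.0275).

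Of the scaffolds, EIF4G1, which joins eIF4E, eIF4A and eIF3, had 596, 631 and 652 CPM in control and 443, 491 and 445 CPM with ILL (log2 fold change -0.45, edgeR adjusted p = 4.3e-08). EIF4G3, its paralog, had 55.7, 55.6 and 53.4 CPM in control and 75.5, 76.4 and 73.5 CPM with ILL (log2 fold change 0.45, SE 0.06, edgeR adjusted p = 2.4e-07). EIF4G1 fell and EIF4G3 rose, each without overlap, and their FPKM ratio (EIF4G3 to EIF4G1) went from 0.0631 to 0.118. EIF4G2 (DAP5), a relative that cannot bind eIF4E and serves cap-independent initiation, had 820, 778 and 810 CPM in control and 869, 888 and 885 CPM with ILL. Its small rise (log2 fold change 0.13, SE 0.05, edgeR adjusted p = 0.012) was not called when libraries were scaled by size alone (edgeR adjusted p = 0.201) or without control replicate 2 (edgeR adjusted p = 0.0947). The limma runs on FPKM did not call it either (adjusted p 0.126 to 0.185).

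Promoter sequences were searched for short letter patterns, which the choice by symbol did not use. In RefSeq promoter windows (GRCh38.p14, 250 bases before to 50 after each annotated start), 44 of the 53 tested members were found. The other 9 had no window and were not searched. They were EIF4EBP1, EIF2S2 and EIF3CL (called higher), EIF3E, EIF3G, EIF3H and EIF3L (called lower), and EIF2AK1 and EIF3A (not called). The palindromic E-box CACGTG, a recognition sequence of the MYC and TFE families, was searched on both strands. It stood in windows of 11 of the 44 members (25.0%), against 12.3% of 10482 tested genes with a window. Of these 11 members 8 fell, 1 rose and 2 were not called, while of all 44 members with a window 25 fell, 7 rose and 12 were not called. The sites of the eIF4 members that fell, of the lowest eIF2B and eIF3 members with a site, of the member that rose and of one that was not called are shown here on the gene's strand, 5′ to 3′, with the E-box in capitals.
EIF4E (chr4:98929343-98929368, minus strand, GRCh38.p14): acccatcggcCACGTGaccagtcctt
EIF4E (chr4:98929190-98929215, minus strand, GRCh38.p14): acatatccgtCACGTGgccagaagct
EIF4G1 (chr3:184314452-184314477, plus strand, GRCh38.p14): ctgtggctgtCACGTGacggggcggg
EIF4G1 (chr3:184314529-184314554, plus strand, GRCh38.p14): ctgcgccggtCACGTGggggcgccgg
EIF4H (chr7:74174147-74174172, plus strand, GRCh38.p14): gccgccgcacCACGTGggctgcagag
EIF4A3 (chr17:80147234-80147259, minus strand, GRCh38.p14): agttccctttCACGTGacgaagagtg
EIF2B3 (chr1:44986759-44986784, minus strand, GRCh38.p14): cagagggacaCACGTGtcgaatgctc
EIF3K (chr19:38619075-38619100, plus strand, GRCh38.p14): aggaagaagtCACGTGgcagccggaa
EIF2AK2 (chr2:37157146-37157171, minus strand, GRCh38.p14): gcaggggcagCACGTGggtgccaagc
EIF4B (chr12:53006424-53006449, plus strand, GRCh38.p14): ccgctataatCACGTGattgcctcat

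EIF4E and EIF4G1 thus hold a pair of sites each. So does EIF5A2, which also fell and whose sites are not shown. EIF4B, whose level did not pass edgeR's test, holds a site as well. The ETS pattern CCGGAAGT stood in 9 of the 44 members (20.5%) against 9.70% of the tested genes, of which 6 fell and 3 were not called. TGATGNAA, the pattern that C/EBP and ATF dimers recognise, stood in 1 of the 44 members (2.27%) against 2.75% of the tested genes. That member was EIF4E3, the one with the highest rise, whereas EIF4EBP1, the other DEG that was higher, had no window. The site in 1 of the windows of EIF4E3 is shown here with the pattern in capitals.
EIF4E3 (chr3:71729114-71729141, minus strand, GRCh38.p14): gccatggtgaTGATGAAAgttgggctga

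The cyclic AMP response element TGACGTCA was in none of the 44 members' windows and in 3.70% of those of the tested genes. A match is a run of letters, and binding was not measured in these libraries.

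All genes of eIF5A, the factor that helps ribosomes through difficult peptide bonds, fell (3 of 3, median log2 fold change -0.78). EIF5A had 715, 700.0 and 694 CPM in control and 403, 411 and 413 CPM with ILL (log2 fold change -0.78, SE 0.05, edgeR adjusted p = 1.4e-13). EIF5A2, its paralog, had 31.7, 28.5 and 27.0 CPM in control and 20.6, 15.7 and 20.2 CPM with ILL (log2 fold change -0.63, SE 0.10, edgeR adjusted p = 3.9e-06). EIF5AL1, a near-identical copy of EIF5A whose reads may be shared with it, fell from 13.0 to 7.47 CPM. No group overlapped. The FPKM summed over the 3 genes were 208 in control and 116 with ILL. The 5 listed genes that make the polyamine spermidine and attach hypusine to eIF5A all fell as well (median log2 fold change -0.84). This count and that of the eIF5A genes stand against 36.9% of all tested genes called lower. SRM, spermidine synthase, fell from 164 to 52.5 CPM (log2 fold change -1.65, SE 0.06, edgeR adjusted p = 4.4e-18), AMD1, which makes the aminopropyl donor, from 163 to 81.0 CPM (log2 fold change -1.01, SE 0.06, edgeR adjusted p = 2.2e-13), and DHPS, the first hypusine enzyme, had the smallest change (-0.26, SE 0.07, edgeR adjusted p = 0.0012). EIF6, which keeps the large subunit free until it is ready, had 545, 556 and 633 CPM in control and 616, 543 and 567 CPM with ILL (-0.01, 95% interval -0.13 to 0.11), so its groups overlapped.

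Genes that act with the initiation factors were counted in lists written by role. The counts of each list stand against 36.2% of all tested genes called higher and 36.9% called lower. In the mTORC1 arm upstream of the 4E-BPs, 5 of 15 tested genes rose (33.3%) and 6 fell (40.0%), shares close to those of all genes. SESN2, an mTORC1 inhibitor induced by stress, rose 7.52-fold from 9.37 to 70.5 CPM (log2 fold change 2.91, SE 0.08, edgeR adjusted p = 4.1e-20), whereas its paralog SESN3 fell from 8.65 to 3.71 CPM (log2 fold change -1.22, SE 0.17, edgeR adjusted p = 6.6e-07). Among partners of the cap complex, 6 of 12 rose and 3 fell (25.0%). PDCD4, an inhibitor of eIF4A, rose from 4.29 to 17.6 CPM (log2 fold change 2.04, SE 0.14, edgeR adjusted p = 1.9e-12), and MKNK2, a kinase of eIF4E, from 112 to 311 CPM (log2 fold change 1.47, SE 0.05, edgeR adjusted p = 2.6e-18). PAIP2B, an inhibitor of the poly(A)-binding protein, was called higher at a low level (0.599 and 1.26 CPM, log2 fold change 1.07, SE 0.43, edgeR adjusted p = 0.028), a call lost without control replicate 2 or 3 or ILL replicate 1 or 2 (adjusted p 0.0587 to 0.136), and PABPC4 was the lowest (log2 fold change -0.62, SE 0.06, edgeR adjusted p = 2.9e-10).

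The remaining lists were mostly lower or mixed. Of 8 other genes of initiation and ribosome recycling, 7 fell (87.5%) and none rose (median log2 fold change -0.51). ABCE1, the recycling ATPase, fell from 203 to 62.9 CPM (log2 fold change -1.69, SE 0.06, edgeR adjusted p = 9.6e-19). BZW1, an eIF5 mimic, had the smallest change (-0.12, edgeR adjusted p = 0.051). It was called lower without control replicate 3 or ILL replicate 1 (edgeR adjusted p = 0.044 and 0.0037). Scaling by size alone (edgeR adjusted p = 0.00394) and no filter on low counts (edgeR adjusted p = 0.0208) also gave a lower call. With a filter of 1 FPKM, limma did so too (adjusted p = 0.0137 and 0.0144). Of the 4 listed partners of EIF4A3 in the exon junction complex 3 fell, from MAGOHB at -0.998 (SE 0.08, edgeR adjusted p = 7.3e-11) to a value of -0.10 for CASC3, which was called only without ILL replicate 2 among the libraries left out (edgeR adjusted p = 0.0353). CASC3 was also called lower when libraries were scaled by size alone (edgeR adjusted p = 0.00826) and in the limma runs on FPKM (adjusted p 0.0110 to 0.0125). The 10 elongation and termination factors were split, with 4 higher, 5 lower and no DEG, between EEF1A2 at 0.45 (SE 0.06, edgeR adjusted p = 1.8e-07) and EEF1B2 at -0.53 (SE 0.05, edgeR adjusted p = 2.4e-09).

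**Figure D5:**
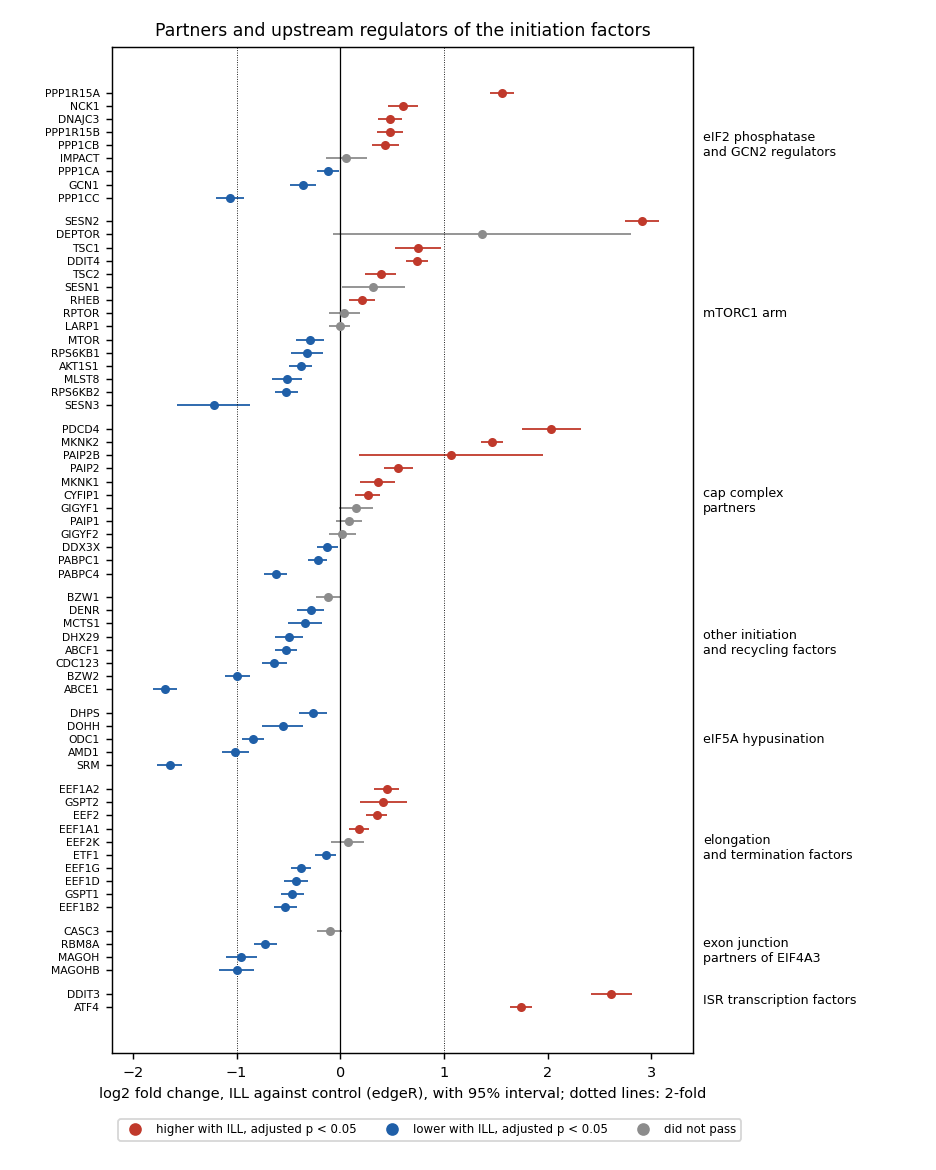
Log2 fold change (ILL over control) of the tested genes of each partner list, with 95% intervals and colour for the direction of called genes. Hypusination genes all lie below 0, whereas the mTORC1 arm runs from SESN3 (-1.22) to SESN2 (2.91).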

How the data were processed

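The authors deposited raw read counts and FPKM per gene symbol, 1 column per library. In 100% of the nonzero values the deposited FPKM equalled the count over a whole-number length and the library total, within 0.1%. GRCh38 and DESeq2 are named in the submitters' processing notes. The aligner, annotation and strand setting are not given in the sources used here.

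Counts were filtered with filterByExpr, which left 13066 of 19470 genes, normalized by TMM and tested with edgeR 4.0.16's quasi-likelihood test (R 4.3.3) with Benjamini-Hochberg adjustment. SEs are the log2 fold change over the root of F. The biological coefficient of variation was 0.0717. DESeq2 1.42.0 and limma 3.58.1 on log2(FPKM + 1) or log2(FPKM + 0.1) were alternatives. The fit was tested on simulated counts.

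Members and lists were chosen with earlier results of these data known. Genes were named by rule, with their values: member DEGs, the extremes of each role and list, the eIF2 kinases, the ratio members, list DEGs, PPP1R15A, ATF4 and DDIT3. Other members are given by role, and some other list genes are named beside these. Gene positions come from GENCODE 29. Of the members, 23 overlap another counted gene. A listed marker gene is not reported here.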

Additional observations from a re-analysis of the deposited data

How the results depend on the processing

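Of the 53 tested members, 38 kept direction and call in every alternative run. The counts ranged from 7 to 10 higher and 29 to 32 lower, and leaving out 1 library gave 8 to 10 higher, 28 to 29 lower, 4 to 5 DEGs and a median log2 fold change of -0.27 to -0.20. With limma on FPKM only 2 members, EIF1AX and EIF2B3, were DEGs, as EIF4EBP1 came to 0.97 and EIF4E3 was below the filter of 1 FPKM or, without it, was damped by the pseudocount of 1. The members' median was -0.31 with library size only and -0.30, -0.31 and -0.30 in the 3 FPKM settings. Library size only moved the median of all genes from -0.0012 to -0.0702, and the members' distance from it stayed at -0.24. Reversed signs, apart from EIF3CL (-0.31 without ILL replicate 2), concerned members that were called in neither setting. With library size only, limma on log2(FPKM + 1) with and without the filter, and limma on log2(FPKM + 0.1), these were EIF2AK1 (-0.054, -0.053, -0.053 and -0.054), EIF2S3B (-0.031, -0.025, -0.025 and -0.031), EIF4E2 (-0.017, -0.015, -0.015 and -0.016) and EIF4EBP2 (-0.033, -0.031, -0.031 and -0.032). With DESeq2 size factors, a minimum of 10 counts per library, and the DESeq2 Wald test, EIF2S3 came to 0.010, 0.012 and 0.0067, and EIF6 to 0.0041, 0.0059 and 0.00049. EIF1B came to 0.00025 with that minimum. Leaving out 1 library gave -0.11 to 0.078 for EIF1B, -0.0062 to 0.033 for EIF2AK1, -0.016 to 0.015 for EIF2S3, -0.31 to 0.060 for EIF3C, -0.31 to 1.57 for EIF3CL, -0.055 to 0.045 for EIF3D, -0.00021 to 0.066 for EIF4EBP2 and -0.058 to 0.062 for EIF6. The cause of these shifts was not tested. Same-numbered libraries of the groups shared only a number (correlations of their deviations 0.0107, -0.0218 and -0.0179), and the replicate number as a block gave 9 higher and 29 lower members, with EIF3CL the one call lost among members (adjusted p = 0.0714). All 7 ratios kept their direction in every alternative run. With 3 libraries per group, changes within the spread, such as those of EIF6 or EIF3D, were not detectable.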
